A study of Mus musculus with 34 samples.

Results

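The comparison described here is p53 knockout back skin at 24 h against 6 h after a radiation dose of 5 Gy. It rests on the 2 samples of the 6 h group and the 2 samples of the 24 h group, 4 of the 34 samples of the study, each group deposited as 1 column of mean FPKM. FPKM is the number of sequenced fragments scaled to transcript length and library size, so levels can be set side by side between genes. Of 47633 table rows, the 14174 genes with 1 FPKM or more in either column were compared, as the log2 ratio of FPKM + 1 at 24 h over 6 h. A gene is called higher or lower here at 2-fold or more on that scale, which understates differences of low genes.

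The study sequenced total RNA from mouse skin before and after ionizing radiation. All mice were 8 to 10 weeks old, and the back skin carried hair in its growth phase. The p53 Knock out group was set beside WT mice and Krt17 Knock out mice, which lack a keratin of stressed epidermis and growing hair. Each genotype had an unirradiated 0 h group and groups at 6 h and 24 h after 5 Gy, with 2 samples per group, and the labels do not say whether these were separate mice or how the knockout was made.

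The columns used hold no single-sample values, no spread and no read numbers. The depth is therefore unknown, no difference has a replicate check, no p-value was computed, and every difference below is a size only. All 3 p53 knockout columns also come from 1 set of columns, so 6 h against 0 h and 24 h against 6 h share the 6 h column, and 24 h against 0 h shares columns with both. In bulk skin, fewer cells of a type and less RNA per cell cannot be told apart. Trp53, the gene that encodes p53, was listed at 25.8, 18.05 and 28.8 FPKM at 0, 6 and 24 h in the knockout, and a level over the whole gene does not check a deletion of some of its exons. Markers of basal epidermis (Krt5 and Krt14), differentiated epidermis (Krt1 and Krt10), the inner root sheath (Krt71) and the hair matrix (Shh) were present in all 3 columns, Shh at the lowest level, 7.14 to 11.6 FPKM.

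p53 is a transcription factor that, after DNA breaks, switches on genes that stop division or start cell death, and the dividing matrix of a growing hair follicle is among the tissues most sensitive to it. Irradiated skin also answers with signals of tissue damage. Acute-phase proteins, S100 alarm proteins and stress keratins are made by keratinocytes, and neutrophils that enter the skin carry some of the same proteins.

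In p53 knockout skin, 482 genes differed by 2-fold or more, of which 306 were lower at 24 h than at 6 h, 2.16% of those compared, and the rest, 1.24%, were higher. At 4-fold or more, 66 were lower and 18 higher. The median log2 ratio over all genes was 0.01, and 51.0% of genes lay above 0. The genes lower at 24 h included acute-phase and antimicrobial proteins, stress keratinocyte genes, late cornified envelope genes of the Lce3 family and glucocorticoid-responsive genes. Those higher at 24 h included protein-folding chaperones of the endoplasmic reticulum, lipid synthesis genes, genes of the hair shaft and immediate early genes.

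**Figure D1:**
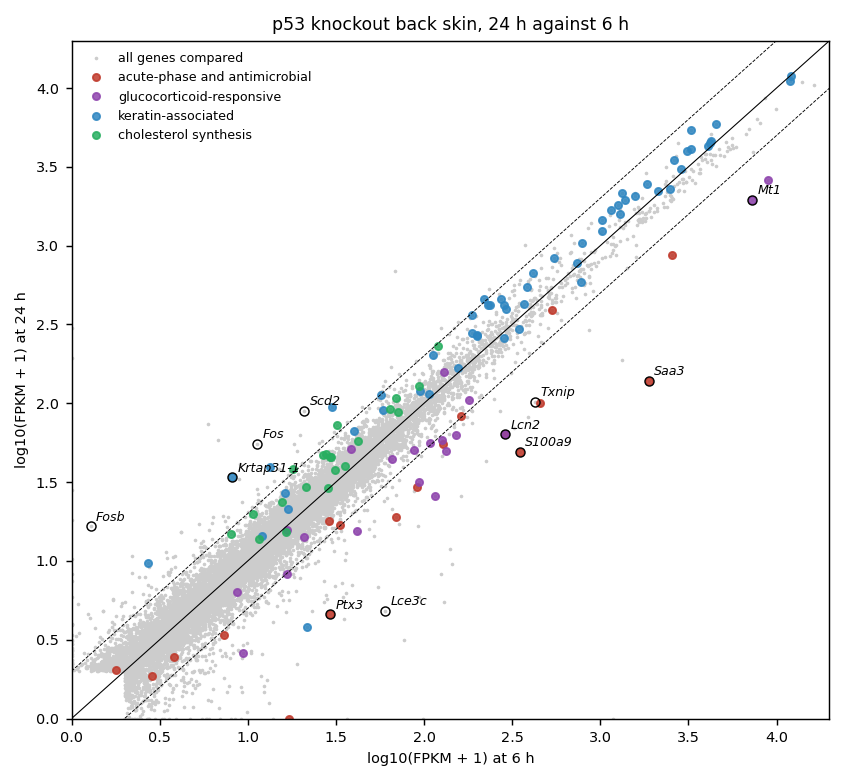
Level of each compared gene in p53 knockout back skin at 6 h (x axis) and 24 h (y axis), both as log10 of FPKM + 1, with 4 gene lists in colour. The solid line marks equal levels, the dashed lines a 2-fold difference, and ringed points carry gene names; Saa3, Lcn2 and S100a9 lie below the lower dashed line and Scd2, Fos and Fosb above the upper one.

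Of the 20 genes on the acute-phase and antimicrobial list 18 were compared. By 2-fold 11 were lower and 0 higher, where 2.16% and 1.24% of all genes were. The median log2 ratio was -1.39 against 0.01 over all genes. Saa3, a serum amyloid A protein made locally in inflamed tissue (chromosome 7, 46711998 to 46715700, minus strand, GRCm38), stood at 10.1 FPKM at 0 h, 1888 at 6 h and 138 at 24 h. Its 24 h level was 7.32% of its 6 h level, a log2 ratio of -3.76, yet it remained 3.65 above its 0 h level on the same scale. Saa1 stood at 0.798, 68.4 and 17.9 FPKM and Saa2 at 0.731, 90.7 and 28.3, with log2 ratios of 24 h over 6 h of -1.88 and -1.65. The Saa genes are close in sequence, so reads may have been divided among them.

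Lcn2, which starves bacteria by binding their iron carriers (chromosome 2, 32384633 to 32388252, minus strand), stood at 9.19, 287 and 62.4 FPKM, a log2 ratio of -2.18. Like the Saa genes it was below its 6 h level and above its 0 h level. S100a8 and S100a9 form the alarm protein calprotectin, which is abundant in neutrophils and is also made by stressed keratinocytes. S100a9 (chromosome 3, 90692632 to 90695721, minus strand) stood at 50.2, 348 and 48.3 FPKM and S100a8 at 95.2, 453 and 98.8. Both were highest at 6 h, and their 24 h levels differed from 0 h by -0.05 and 0.05 on the log2 scale. Ptx3, a soluble pattern recognition protein, stood at 0.744, 28.2 and 3.58 FPKM, a log2 ratio of -2.67. The antimicrobial peptide Defb3 stood at 6.61 and 16.0 FPKM and was listed at 0 at 24 h, so its ratio could only be below 0. Defb6, another beta-defensin, stood at 4553, 2551 and 872 FPKM, so it was lower at each later time. Slpi, a protease inhibitor of mucosa and skin, and Hp, which binds free haemoglobin, were below 2-fold with log2 ratios of -0.98 and -0.45. Against 0 h, 6 of the 18 genes were higher at 24 h and 4 lower, where 0.968% and 1.13% of all genes were.

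The other genotypes did not share this order of times. Wild-type Saa3 stood at 8.79, 5.10 and 295 FPKM, and Krt17 knockout Saa3 at 24.5, 12.6 and 36.9. Wild-type Lcn2 stood at 3.26, 11.7 and 148 FPKM, and Krt17 knockout Lcn2 at 4.50, 20.3 and 62.2. Wild-type S100a9 stood at 29.6, 23.4 and 103 FPKM, and Krt17 knockout S100a9 at 44.3, 20.8 and 31.7. In each of these 3 genes the p53 knockout was highest at 6 h, and its 24 h level was below that of wild type. Over the list's 18 compared genes the median log2 ratio of 24 h over 6 h was 1.13 in wild type, with 9 genes higher and 0 lower, and 0.57 in the Krt17 knockout, with 4 higher and 1 lower. Among all genes compared in wild type, 3.26% were higher and 2.68% lower. The same shares in the Krt17 knockout were 1.84% and 1.58%. With 1 mean column per group, the difference between genotypes was not tested.

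**Figure D2:**
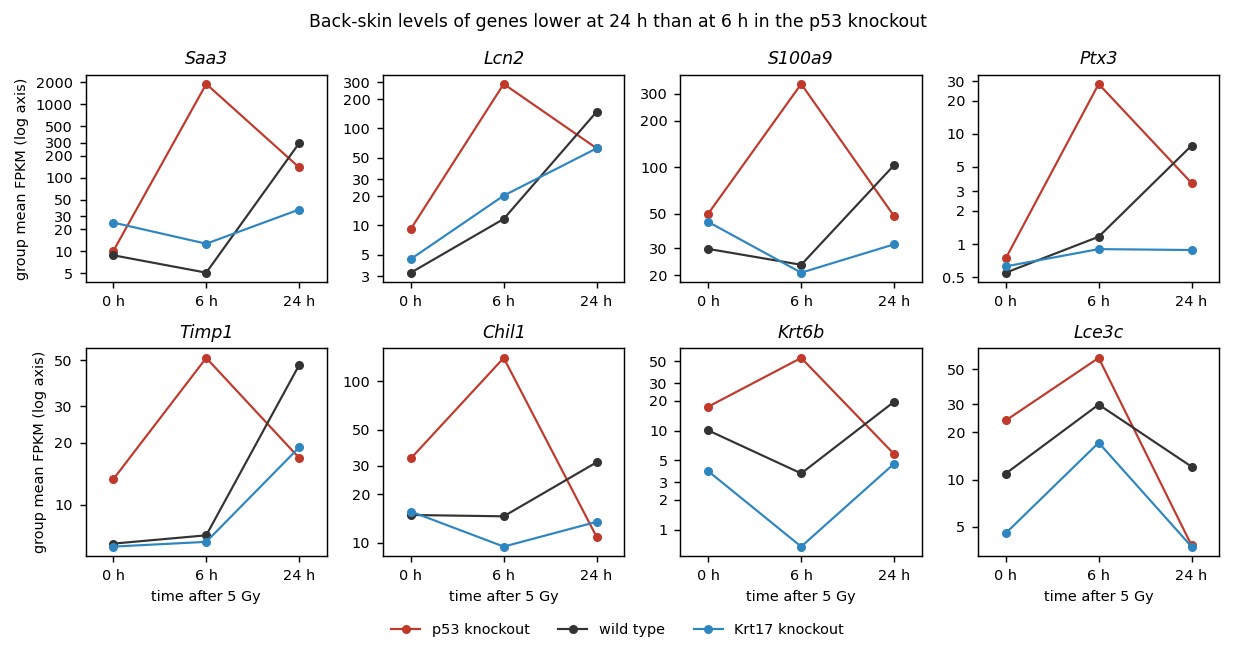
Mean FPKM (log axis) of 8 genes in back skin at 0, 6 and 24 h after 5 Gy, 1 line per genotype and 1 point per group. In the p53 knockout all 8 were highest at 6 h, with Saa3 at 1888 FPKM and Lce3c at 59.2; in wild type 7 of these 8 were highest at 24 h and Lce3c was highest at 6 h.

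Promoter windows of Saa3, Lcn2, S100a9 and Ptx3 and of Stfa1, Txnip and Mt1, described further below, are shown. These genes, all lower at 24 h, and a motif for each were picked by hand. Only windows that held the motif could be shown. The sequences are from RefSeq on GRCm38.p6, 5′ to 3′ along the gene's strand, lower case with the motif in capitals. In the first 5 the capitals mark the motif TTGCNNAA, bound by the C/EBP factors of acute-phase genes, read on either strand. In the last 2 they mark the glucocorticoid response element, a palindrome bound by the hormone's receptor.
Saa3 (chr7:46715748-46715795): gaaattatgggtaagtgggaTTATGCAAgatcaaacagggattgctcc
Lcn2 (chr2:32387928-32387975): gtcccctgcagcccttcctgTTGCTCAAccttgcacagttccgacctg
S100a9 (chr3:90695930-90695971): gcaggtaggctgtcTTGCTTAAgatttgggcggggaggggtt
Ptx3 (chr3:66219810-66219857): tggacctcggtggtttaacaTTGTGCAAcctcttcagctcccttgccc
Stfa1 (chr16:36277019-36277066): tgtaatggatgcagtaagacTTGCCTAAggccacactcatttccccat
Txnip (chr3:96557765-96557817): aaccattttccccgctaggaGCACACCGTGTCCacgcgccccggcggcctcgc
Mt1 (chr8:94178975-94179027): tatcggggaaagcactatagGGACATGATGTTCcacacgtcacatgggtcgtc

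Counted from the RefSeq start of each gene, the motifs lay 91 bases before it in Saa3, 208 in Lcn2, 228 in S100a9, 49 in Ptx3, 101 in Stfa1, 159 in Txnip and 81 in Mt1. RefSeq starts can differ from the GENCODE gene bounds given here. The Lcn2 and Stfa1 windows lay inside the GENCODE bounds of their genes, and the bases after the RefSeq start of Ptx3 were not found in its GENCODE transcripts. The C/EBP motif was found on either strand within 250 bases before the RefSeq start in 9.56% of all 32851 promoters and in 9.23% of the 10473 compared genes with a promoter in the table. It was found in 33 of the genes that were lower at 24 h (18.8% of those with a promoter) and in 7 of 103 that were higher (6.8%). Of the 15 largest decreases by the naming rule given below, 5 of 13 genes with a promoter held it. Of the acute-phase and antimicrobial list, 10 of 14 genes with a promoter held it, among them Saa1, Saa2 and Defb3. The glucocorticoid element was found in 0.387% of all promoters, in 5 of the lower genes (2.84%: Mt1, Serpina3c, Sgk1, Slc10a6 and Txnip) and in 0 of the 103 higher genes. On the list of glucocorticoid-responsive genes only 2 of 17 with a promoter held it, Mt1 and Sgk1. Txnip was not on that list. Of the other motifs searched on both strands, the AP-1 motif (TGA, any base, TCA) was in 11.9% of lower and 11.7% of higher genes against 6.23% of compared genes. The NF-kB motif was in 11.9% and 13.6% against 10.7%. The interferon response element was in 4.55% and 2.91% against 3.07%. These shares are descriptions of letters in a window, and matches of different motifs may overlap.

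The list of neutrophil markers shares S100a8 and S100a9 with the acute-phase list. Of the 24 listed neutrophil genes 14 reached the 1 FPKM filter. Of these 7 were lower at 24 h and 0 lay above 0, against 2.16% and 51.0% of all genes. The median log2 ratio of the list was -1.06. Other filters and pseudocounts gave medians from -1.85 to -0.53. The summed level of the list was 197 FPKM at 0 h, 922 at 6 h and 203 at 24 h, most of it S100a8 and S100a9. Retnlg, a resistin-like protein of neutrophils, stood at 2.88, 27.2 and 4.71 FPKM. Cxcr2, the receptor that leads neutrophils into tissue, stood at 0.483, 3.63 and 0.705 FPKM. Cxcr2 passed the filter only at 6 h, so its ratio could only be below 0. Ly6g, which defines mouse neutrophils, stood at 0.0311, 0.931 and 0.0907 FPKM. Mpo and Elane, enzymes of the neutrophil granule, stayed under 1 FPKM at all 3 times, and Csf3r, the receptor for the neutrophil growth factor, was at 1.84 FPKM at 6 h and 1.80 at 24 h. The part of neutrophils in the Saa3, Lcn2 and S100a9 levels was not tested. In wild type the list summed to 162, 140 and 333 FPKM, and in the Krt17 knockout to 200.5, 142 and 179.

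Of 10 listed genes for signals that attract or sustain neutrophils 5 were compared, and the median was -0.79. By 2-fold 2 were lower and 0 higher, where 2.16% and 1.24% of all genes were. With no filter the median was -0.12. Pf4, a platelet chemokine, made up most of their summed level and stood at 69.5, 115 and 65.7 FPKM. Csf3, the neutrophil growth factor, stood at 0.0449, 1.52 and 0.072 FPKM and Cxcl5, a chemokine that draws neutrophils, at 0.0562, 1.75 and 0.232. Both were the lower genes of the list and passed the filter only at 6 h, so their ratios could only be below 0. Cxcl1, another such chemokine, stood at 0.750, 3.30 and 4.28 FPKM, so its level at 24 h was not below that at 6 h. In wild type Cxcl5 stood at 10.5 FPKM at 24 h. Chemokines for mononuclear cells were mixed, with 6 of 22 lower and 0 higher beside the same shares of all genes, and a median of -0.28. Cxcl9, which interferon induces and which attracts lymphocytes, stood at 1.68, 8.11 and 0.585 FPKM, and Ccl17, which dendritic cells release to attract lymphocytes, at 2.27, 6.84 and 0.598. Cxcl9 and Ccl17 likewise passed the filter only at 6 h. Cxcl13, which guides cells into lymphoid follicles, stood at 1.92, 41.9 and 16.9 FPKM and remained 2.61 above its 0 h level on the log2 scale. Ccl2 and Ccl7, which attract monocytes, both had log2 ratios of 0.38.

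Lists of cytokine signalling genes had smaller median ratios than the acute-phase list. Of 20 inflammatory cytokines and receptors 1 was lower, where 2.16% of all genes were, with a median of -0.32. Il6 stood at 0.217, 0.361 and 1.38 FPKM. Of 20 NF-kB subunits, feedback inhibitors and targets, 0 were 2-fold lower or higher, although 18 lay below 0, with a median of -0.31. Nfkbia, the inhibitor that NF-kB itself induces, stood at 48.9, 86.3 and 49.9 FPKM, and at 42.7, 90.1 and 53.3 in wild type. The STAT3 list, downstream of the interleukin-6 family, had 3 of 15 genes lower, where 2.16% of all genes were. Its median was -0.41, beside 0.70 for wild type and 0.18 for the Krt17 knockout. Its largest ratio was in Timp1, an inhibitor of matrix proteases, at 13.3, 51.3 and 16.9 FPKM. Cebpd, a C/EBP factor that STAT3 induces, stood at 28.3, 133 and 48.9 FPKM, and Stat3 itself at 12.5, 38.2 and 19.2. Serpina3n, a secreted inhibitor of serine proteases, stood at 22.6, 209 and 112 FPKM, a log2 ratio of -0.90.

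Interferon-stimulated genes had a median of -0.36, with 33 of 37 below 0, where 51.0% of all genes lay above 0. By 2-fold 5 were lower, against 2.16% of all genes. Gbp2 and Iigp1, which attack pathogen vacuoles, were among these 5, at 6.58, 17.7 and 5.40 FPKM and at 5.21, 16.1 and 4.67. In wild type 35 of the same 37 lay above 0, with a median of 0.79. The list as a whole did not share the 6 h peak of Gbp2 and Iigp1. Its median log2 ratio of 6 h over 0 h was -0.03, and its summed level was 959, 699 and 492 FPKM. In wild type it summed to 442, 145 and 427 FPKM, so the 24 h level there was near that at 0 h. Of the macrophage and monocyte list 1 of 21 was lower and 0 were higher, where 2.16% and 1.24% of all genes were. Adgre1, which encodes the macrophage marker F4/80, stood at 4.74, 5.26 and 5.82 FPKM. The MHC class II gene H2-Aa, which presents antigen, stood at 153, 174 and 81.4 FPKM, and its log2 ratio of -1.08 lay beside -0.996 in wild type.

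Genes of stressed or wounded keratinocytes were lower at 24 h. Of the 32 compared genes 19 were lower and 0 were higher, where 2.16% and 1.24% of all genes were. The list median was -1.26, with 0.50 for wild type and 0.33 for the Krt17 knockout. Krt16, a keratin switched on at wound edges, stood at 53.8, 223 and 41.9 FPKM. Krt6b, a partner keratin (chromosome 15, 101676023 to 101680287, minus strand), stood at 17.4, 53.9 and 5.80 FPKM, and wild-type Krt6b at 10.0, 3.70 and 19.5. Its close relative Krt6a, added after its values were seen, stood at 187, 126 and 188 FPKM, a log2 ratio of 0.57, and reads of the pair may have been divided between them. Serpinb3a, Gsdmc and Sprr1b also met the 2-fold size, with log2 ratios of -1.58, -1.36 and -1.86. The epidermal growth factor ligands Areg and Ereg did not, at -0.37 and -0.45.

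The list of differentiated epidermis and cornified envelope genes was mixed, with 6 of 41 lower, 0 higher and 16 above 0. Over all genes 2.16% were lower, 1.24% higher and 51.0% above 0. The list median was -0.23, beside -0.34 for wild type (8 lower, 2 higher) and -0.14 for the Krt17 knockout (4 lower, 0 higher). Within the epidermal differentiation and stefin clusters, some whole families lay on one side. These families were chosen after their values were seen. All 6 compared Lce3 genes, which code for late cornified envelope proteins of repairing epidermis, were lower, with a median of -2.99 and a range from -3.64 to -2.38. Lce3a, Lce3b, Lce3e and Lce3f passed the filter only at 6 h, so their ratios could only be below 0. Lce3c and Lce3d passed it at both times. Lce3c (chromosome 3, 92944486 to 92945733, plus strand) stood at 23.7, 59.2 and 3.82 FPKM, and its 24 h level was 2.36 below its 0 h level on the log2 scale. The Lce1 genes of the normal envelope had a median of -0.37, with 2 of 14 lower. Of 8 Sprr2 genes, small proline-rich envelope precursors, 7 were lower, with a median of -1.96, and Sprr2i likewise passed the filter only at 6 h. All 5 stefin A genes, which inhibit cysteine proteases, were lower, with a median of -2.26. Stfa1 stood at 69.9, 162 and 24.6 FPKM, and Stfa3 at 406, 389 and 80.6. Stfa3 and Stfa2 were thus near their 0 h level at 6 h and low at 24 h, unlike Saa3.

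The other genotypes differed by family. In wild type the Lce3 median was also below 0, at -1.52 with 4 of 6 lower, and in the Krt17 knockout it was -1.05. The stefin A median was 1.46 for wild type and 1.88 for the Krt17 knockout, and the Saa median 4.25 and 1.47, both opposite in sign to the p53 knockout. Members of these families are close copies, so values of single members are uncertain.

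**Figure D3:**
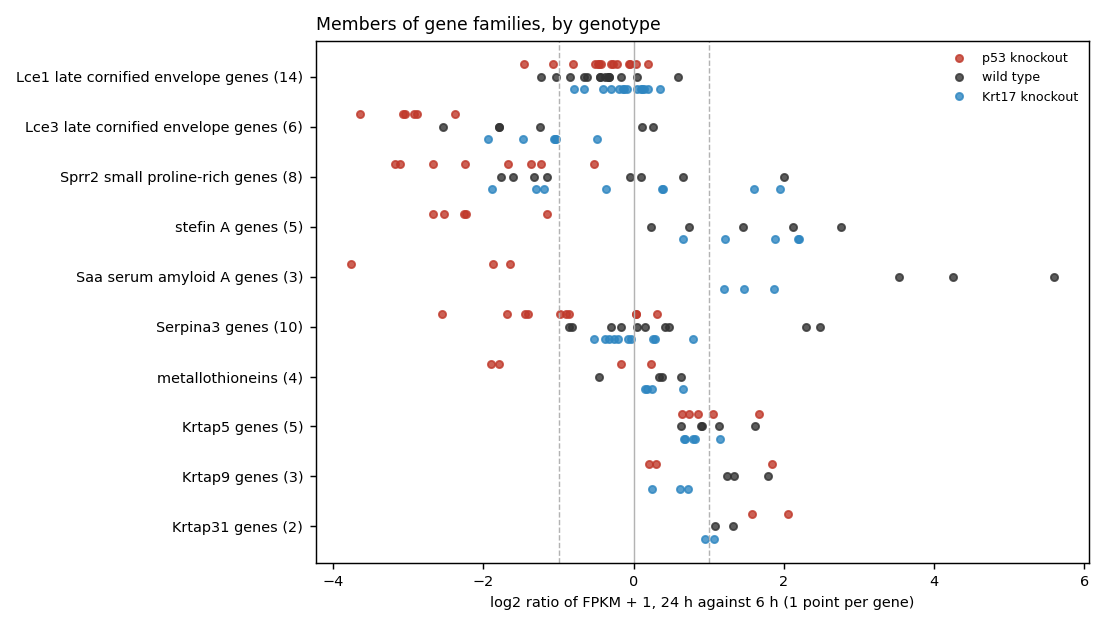
Log2 ratio of FPKM + 1 at 24 h over 6 h for each compared member of 10 gene families, 1 point per gene, in the 3 genotypes; dashed lines mark 2-fold. Lce3 points lie left of 0 in the p53 knockout and the Krt17 knockout and for 4 of 6 genes in wild type, whereas Saa and stefin A points lie left of 0 in the p53 knockout and right of 0 in the other genotypes.

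Chil1, a chitinase-like lectin of inflamed tissue, stood at 33.3, 140 and 10.9 FPKM, a log2 ratio of -3.57, and was 1.53 below its 0 h level. The gene 2610528A11Rik, named Gpr15l among RefSeq synonyms, was noticed after its values were seen. It stood at 19.3, 129 and 4.52 FPKM, and between 6.955 and 7.41 FPKM in wild type. Genes lower at 24 h thus stood at different places relative to 0 h. Saa3, Lcn2 and Cxcl13 were between their 0 h and 6 h levels, S100a8 and S100a9 were at their 0 h level, and Lce3c, Krt6b, Stfa1 and Chil1 were below it. Serpina3n, which did not reach 2-fold, was also between its 0 h and 6 h levels.

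Of 20 compared glucocorticoid-responsive genes 11 were lower and 0 higher in the p53 knockout, with a median of -1.07. In wild type 7 of them were lower and 1 higher, with a median of -0.73. In the Krt17 knockout 8 were lower and 1 higher, with a median of -0.78. The shares of all genes lower and higher were 2.16% and 1.24% in the p53 knockout. They were 2.68% and 3.26% in wild type, and 1.58% and 1.84% in the Krt17 knockout. Lcn2, also on the acute-phase list, was 1 of the 11 and was the gene higher in both other genotypes. Fkbp5, a chaperone of the glucocorticoid receptor, stood at 8.76, 40.7 and 14.4 FPKM, and at 6.68, 33.0 and 14.7 in wild type. Tsc22d3, an anti-inflammatory mediator of glucocorticoids, stood at 43.3, 151 and 62.2 FPKM, and at 40.6, 147 and 66.6 in wild type. Zbtb16, a transcription factor, stood at 0.916, 8.42 and 1.61 FPKM, and at 0.670, 9.07 and 2.79 in wild type. All 3 genes were thus highest at 6 h in both genotypes, whereas the metallothioneins were highest at 6 h in the p53 knockout and at 24 h in wild type. Mt1, a metal-binding protein, stood at 1853, 7263 and 1953 FPKM here but at 1180, 2334 and 3619 in wild type, and Mt2 stood at 2864, 8983 and 2598 against 1988, 2936 and 3802.

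The fasting list, which shares members with the glucocorticoid list, had 12 of 32 genes lower, where 2.16% of all genes were. Its median was -0.54, beside -0.71 for wild type and -0.86 for the Krt17 knockout. Pdk4, which restrains glucose oxidation, stood at 6.14, 92.8 and 30.8 FPKM. Txnip, an inhibitor of thioredoxin that responds to glucose, stood at 111, 427 and 101 FPKM, and it shares exon bases with the antisense gene Gm15441, from which it may not be separable here. Angptl4, an inhibitor of lipoprotein lipase, stood at 19.1, 115 and 24.7 FPKM. Trim63, a ubiquitin ligase of muscle, differed less, at 5.75, 69.4 and 53.8 FPKM, a log2 ratio of -0.37.

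**Figure D4:**
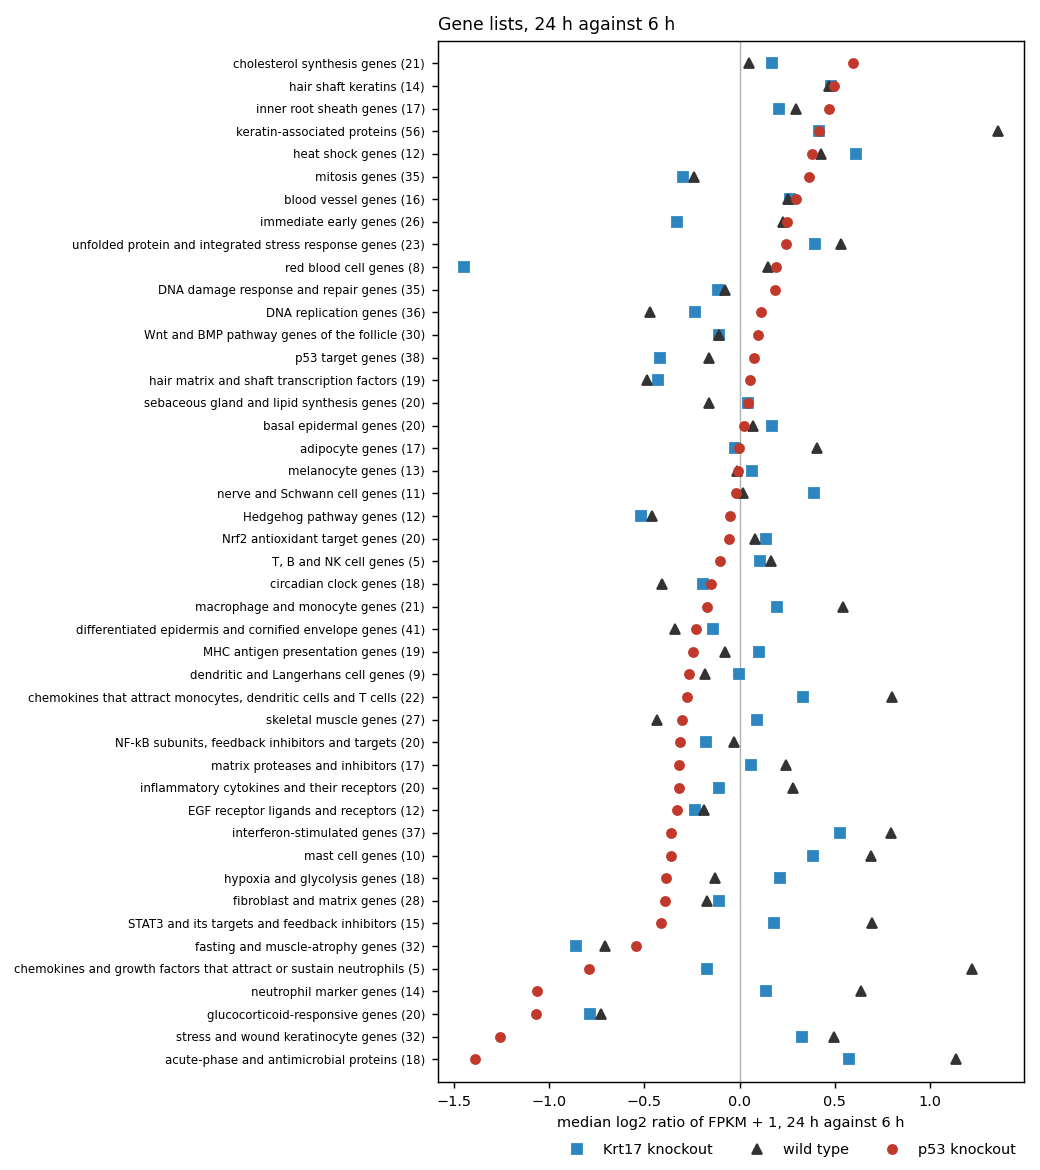
Median log2 ratio of FPKM + 1 at 24 h over 6 h for each of 45 gene lists, with the number of compared genes in brackets, in p53 knockout (circles), wild type (triangles) and Krt17 knockout (squares) back skin. The acute-phase list lies at -1.39 in the p53 knockout and at 1.13 in wild type, the glucocorticoid list lies below 0 in all 3 genotypes, and the cholesterol list lies at 0.59 in the p53 knockout.

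Genes higher at 24 h included chaperones of the endoplasmic reticulum. Hspa5, the main one, which also senses unfolded proteins (chromosome 2, 34771970 to 34777547, plus strand), stood at 155, 124 and 299 FPKM, a log2 ratio of 1.27. Sdf2l1 stood at 18.1, 10.2 and 27.6 FPKM and Hsp90b1 at 128, 89.4 and 184. Hspa5 showed similar log2 ratios of 1.08 for wild type and 1.13 for the Krt17 knockout. The wider list of unfolded protein and integrated stress genes had a median of 0.24. On it 3 of 23 were higher and 0 lower, where 1.24% and 2.16% of all genes were. Ddit3 and Atf4, transcription factors of the integrated stress response, had log2 ratios of 0.24 and 0.03.

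Of 21 cholesterol synthesis genes 20 lay above 0 and 2 were higher, where 51.0% and 1.24% of all genes were. Their median was 0.59, beside 0.05 for wild type and 0.17 for the Krt17 knockout. Idi1, an isomerase of the pathway, stood at 79.2, 31.0 and 72.1 FPKM, and Mvd, a decarboxylase, at 34.1, 17.05 and 37.2. Both were near their 0 h level at 24 h. In wild type Idi1 stood at 73.5, 24.8 and 32.7 FPKM. The summed level of the list was 1334, 782 and 1206 FPKM in the p53 knockout and 1347, 838 and 875 in wild type, so the columns were close at 0 h and 6 h and apart at 24 h. Some fatty acid genes were higher as well. Fasn, which builds fatty acids, stood at 106, 58.7 and 137 FPKM, Srebf1, the factor that controls them, at 32.3, 19.2 and 40.7, and Scd2, a desaturase, at 82.4, 19.9 and 88.7. In wild type Fasn was 43.7 FPKM at 6 h and 39.0 at 24 h. The desaturase Scd3 went the other way without reaching 2-fold, at 21.2, 21.7 and 10.6 FPKM. The whole sebaceous gland and lipid synthesis list had a median of 0.04. On it 2 of 20 genes were higher and 0 lower, where 1.24% and 2.16% of all genes were.

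**Figure D5:**
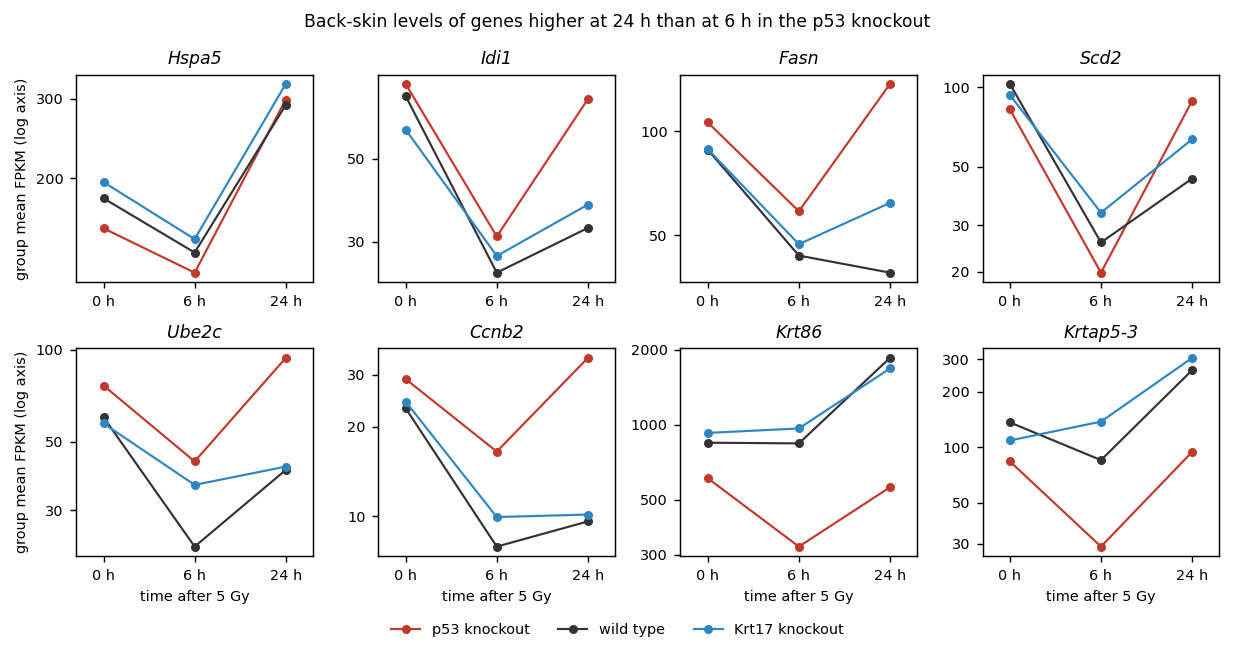
Mean FPKM (log axis) of 8 genes in back skin at 0, 6 and 24 h after 5 Gy, 1 line per genotype and 1 point per group. In the p53 knockout all 8 were lowest at 6 h; Hspa5 was higher at 24 h than at 6 h in every genotype, whereas Fasn at 24 h was 137 FPKM in p53 knockout and 39.0 in wild-type skin.

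Genes of cell division were slightly above their 6 h level. Of 35 mitosis genes 29 lay above 0 and 2 were higher, where 51.0% and 1.24% of all genes were. Their median was 0.36, beside -0.24 for wild type and -0.30 for the Krt17 knockout. Ube2c, which feeds mitotic proteins to degradation, stood at 76.3, 43.2 and 93.9 FPKM, and it shares exon bases with the muscle gene Tnnc2 on the other strand. Ccnb2, a mitotic cyclin, stood at 29.0, 16.5 and 34.1 FPKM, a log2 ratio of 1.004 that fell below 2-fold when the columns were rescaled. The proliferation marker Mki67 and the topoisomerase Top2a differed little, with log2 ratios of -0.05 and 0.18. DNA replication genes had a median of 0.11 and DNA repair genes of 0.19, with 0 called in either list. Of 38 p53 target genes 0 were higher and 1 was lower, where 1.24% and 2.16% of all genes were, with a median of 0.07. That gene was Sesn1, which FOXO factors also control, at 22.9, 44.4 and 19.98 FPKM, and it stood at 24.1, 52.2 and 15.2 in wild type.

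Hair shaft genes lay mostly above their 6 h level. All 14 hair keratins and 49 of 56 keratin-associated protein genes were above 0, against 51.0% of all genes, with medians of 0.49 and 0.42. The hair keratin median was 0.47 for wild type and 0.48 for the Krt17 knockout. For keratin-associated genes it was 1.35 for wild type, with 40 higher, and 0.42 for the Krt17 knockout, with 2 higher. In the p53 knockout 5 of them were higher (Krtap31-1, Krtap9-5, Krtap5-3, Krtap31-2 and Krtap5-2), where 1.24% of all genes were, and Krtap20-2 was lower. Krtap31-1 stood at 79.7, 7.16 and 33.0 FPKM, so it was lower at 24 h than at 0 h. The hair keratin Krt86 stood at 609, 323 and 560 FPKM and Krt84 at 19.5, 8.25 and 22.7. The summed keratin-associated level was 125855, 80255 and 93458 FPKM in the p53 knockout and 111849, 107429 and 274425 in wild type. Genes with a Krtap symbol made up 8.57% of all FPKM at 6 h and 10.7% at 24 h in the p53 knockout, against 11.8% and 25.1% in wild type. Inner root sheath genes had a median of 0.47, with 15 of 17 above 0, beside medians of 0.30 for wild type and 0.21 for the Krt17 knockout. Hedgehog pathway genes had a median of -0.05, and Shh, their ligand in the hair matrix, stood at 7.14, 11.6 and 9.06 FPKM against 5.90, 4.63 and 1.203 in wild type.

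Immediate early genes, which respond to growth signals and to handling of tissue, held some of the largest ratios. Fos stood at 8.84, 10.3 and 54.5 FPKM, Fosb at 0.969, 0.285 and 15.5, and Nr4a1 at 5.75, 5.01 and 14.7. The list as a whole had 3 of 26 higher, where 1.24% of all genes were, and a median of 0.25. It was split in sign, with 15 above 0 and 11 below, where 51.0% of all genes lay above 0. In wild type Fosb stood at 9.90, 1.73 and 20.9 FPKM, and in the Krt17 knockout at 0.505, 3.85 and 1.05. Krt15, a keratin of basal cells and of the hair bulge, stood at 436, 234 and 530.3 FPKM. Acta2, the smooth muscle actin of the hair muscle and sheath, stood at 97.6, 64.1 and 169 FPKM. The fibroblast and matrix list had a median of -0.39, with 3 of 28 above 0, and Col1a2, a collagen chain, stood at 262, 395 and 208 FPKM.

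Genes called in the p53 knockout were then followed in the other genotypes, whose columns are separate. Among 13418 genes compared in both, 244 were lower in the p53 knockout and 318 in wild type. They shared 66 genes, 27.05% of the p53 knockout's and 20.8% of wild type's, where 2.37% of all genes were lower in wild type. Another 39 of the 244 were higher in wild type, 16.0% of them and 9.77% of the 399 higher there, where 2.97% of all genes were higher. Saa3, Lcn2, S100a8, S100a9, Krt6b, Stfa1 and Timp1 were among these 39. Of 137 genes higher in the p53 knockout, 49 were higher in wild type (35.8% and 12.3%) and 6 were lower. In the Krt17 knockout, 60 of 226 lower genes were also lower (26.5% of these and 34.9% of its 172) and 23 were higher, where 1.28% of all genes were lower there and 1.35% higher. Of 139 higher genes, 43 were higher there too (30.9% and 23.8%) and 6 were lower.

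Several of the largest ratios came from genes that moved irregularly between columns. Foxn3, a transcription factor, stood at 5.39, 93.0 and 4.90 FPKM, with wild-type levels of 7.78, 146 and 326. Mrm1, a mitochondrial RNA methyltransferase, stood at 7.06, 143 and 8.62 FPKM, and at 127, 5.26 and 5.94 in wild type. Nrd1, a protease, was 688 FPKM in the p53 knockout's 24 h column and between 67.2 and 192 in the other 8 columns. Slc5a11, a solute transporter, was 17.05 FPKM at 24 h and under 1 FPKM in the other 8. Whether such values came from both samples of a group or from 1 cannot be told apart in means.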

How the data were processed

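RNA from mouse back skin was sequenced in 9 groups of 2 samples. The authors deposited FPKM values as 1 mean column per group. The submitters' processing notes list TopHat2 2.1.0, Cufflinks 2.2.1 and mm10. The annotation release, the strand setting and the way samples were averaged are not given in the sources used here. Columns summed to between 854202 and 1095024 FPKM.

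Log2 ratios of FPKM + 1 were computed with Python 3.11.15, numpy 2.4.6 and pandas 2.3.3, and drawn with matplotlib 3.10.9. Genes needed 1 FPKM in either column. Symbols on several lines (116) were left out. A listed 0 was treated as missing where the gene's other back-skin columns had a median of at least 5 FPKM (19 values). A limma fit needs single samples and could not be run. The counting was checked on simulated data.

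Members and 45 gene lists were chosen with earlier results of these data known. The naming rule took Trp53, the 15 largest decreases and increases among genes of 5 FPKM or more whose symbol is not a gene model number, the 6 largest ratios of each list and defining cell markers; other list members printed were chosen after their values were seen. Alternatives changed the pseudocount, filter, scaling, listed zeros and genes included. Positions are from GENCODE M21 (GRCm38, the assembly of mm10). The footpad table was not used.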

Additional observations from a re-analysis of the deposited data

How the results depend on the processing

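No paired analysis was possible because each group was 1 mean column, and leaving out a replicate could not be run for the same reason. A pseudocount of 0.1 FPKM gave 402 higher and 539 lower genes, and one of 5 FPKM gave 53 and 111, against 482 in all, 306 of them lower. A filter of 5 FPKM gave 112 and 191. Columns rescaled to a common median gave 162 and 290, and protein-coding genes only, chosen after seeing the data, gave 128 and 216. No gene named by the rule changed sign, and of 94 at 2-fold or more, 22 fell under it with a pseudocount of 5 FPKM and 2 (Ccl20 and Ccnb2) with rescaling. List medians differed by over 1.5-fold on the FPKM scale for stress keratinocyte genes with a pseudocount of 5 FPKM (-0.64), neutrophil attractants with no filter (-0.12), and neutrophil markers (-1.85) and T, B and NK cell genes (0.64, from -0.10) with the filter of 5 FPKM. The neutrophil median was -0.53 with a pseudocount of 5 FPKM, -0.69 with no filter and -1.53 with a pseudocount of 0.1 FPKM, and that of T, B and NK cell genes was 0.08 with rescaling. The medians of basal epidermal, adipocyte and nerve genes, all near 0, also took the other sign in 1 alternative each. Low genes are limited by unknown depth.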

Other observations

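Gene classes differed in how often they passed 2-fold in p53 knockout back skin at 24 h against 6 h. Of 13218 protein-coding genes 216 were lower and 128 higher, while of 35 small RNA genes 14 were lower and 12 higher. Of 166 pseudogenes 30 were lower and 19 higher. Of 717 long non-coding genes 39 were lower and 17 higher. The most extreme ratios, -10.21 and 8.22, were in gene models listed at 0 in all other columns.

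Hamp2, a hepcidin gene of iron control, stood at 17.1, 4.96 and 73.0 FPKM at the 3 times, with wild-type levels of 6.85, 22.8 and 24.9. Defb8, a beta-defensin, stood at 140, 123 and 7.23 FPKM, while its other back-skin groups lay between 88.3 and 619.5 FPKM. Spink7, a protease inhibitor of epithelium, was at 1.11 and 8.14 FPKM at 0 h and 6 h and was listed at 0 at 24 h and in all 6 columns of the other genotypes. Other cell types of the skin piece mostly changed less. Adipoq, a fat cell hormone, stood at 110.03, 121 and 121 FPKM, and the adipocyte and melanocyte lists both had medians of -0.01, with the adipocyte sign turning in 1 alternative. Hba-a1, an alpha-globin gene of red blood cells, stood at 297, 361 and 413 FPKM. The beta-globin gene Hbb-bt went the other way, at 107, 71.2 and 31.7 FPKM, a log2 ratio of -1.14. Of 8 red blood cell genes compared 5 lay above 0 and 3 below, 1 of them lower by 2-fold, with a median of 0.19. The skeletal muscle list had a median of -0.30, with 24 of 27 below 0, where 51.0% of all genes lay above 0. Acta1, the actin of skeletal muscle, stood at 1091, 1219 and 988 FPKM. Among clock genes Dbp, an output gene of the daily rhythm, stood at 9.89, 2.47 and 5.83 FPKM, and the list median was -0.15.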
